A study of Mus musculus with 4 samples.

Results

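The mouse Hox genes are 39 genes in 4 chromosomal clusters, and this account follows all of them in 4 RNA-sequencing libraries of primary embryonic fibroblasts. Members were all symbols of the form Hoxa, Hoxb, Hoxc or Hoxd followed by a number, and all 39 were found among the 23235 symbols listed for each library. HoxA has 11 genes on chromosome 6, HoxB 10 on chromosome 11, HoxC 9 on chromosome 15 and HoxD 9 on chromosome 2. There was 1 library for each of 4 genotypes, all on strain C57BL/6: wild type, Gadd45-/-, G3 Terc-/-, and G3 Gadd45-/-Terc-/-, called dKO. The design text names the deleted Gadd45 gene as Gadd45a, which encodes a protein that cells make under stress and that takes part in DNA repair and demethylation. Terc encodes the RNA template of telomerase, and G3 denotes the third generation of mice without it. The series' title places the work in telomere biology, stem cell ageing and lifespan. The fibroblasts were freshly isolated by mincing embryos and digesting them with trypsin. The age and number of the embryos, their sex and the parts of the body kept for culture are not stated in the labels used here.

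Hox genes encode homeodomain transcription factors that give cells their position along the body axis. Within a cluster they lie on the chromosome in the order in which they act from head to tail, so low paralogue numbers mark anterior and high numbers posterior tissue. The most posterior members of HoxA and HoxD also pattern the distal limb and the genital region, and fibroblasts keep much of the Hox code of the place they came from when they are cultured. Polycomb proteins hold silent Hox genes in a repressed state, Trithorax proteins maintain active ones, and retinoic acid switches on the anterior members in the embryo.

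The start regions of 3 members, Hoxa5, Hoxa13 and Hoxd13, are shown because the results below turn on them: the first stood highest and the other two lowest in the library labelled dKO. The sequences are those of RefSeq on build GRCm38.p6, while the submitters' processing notes give mm9 for the expression tables. Each runs 5′ to 3′ over 300 bases, 250 before to 50 after an annotated start. Capitals mark TAAT, the core letters read by homeodomains, and GGGCGG, the GC box, each on either strand, where they read ATTA and CCGCCC.
Hoxa5, chr6:52204538-52204837 on the minus strand: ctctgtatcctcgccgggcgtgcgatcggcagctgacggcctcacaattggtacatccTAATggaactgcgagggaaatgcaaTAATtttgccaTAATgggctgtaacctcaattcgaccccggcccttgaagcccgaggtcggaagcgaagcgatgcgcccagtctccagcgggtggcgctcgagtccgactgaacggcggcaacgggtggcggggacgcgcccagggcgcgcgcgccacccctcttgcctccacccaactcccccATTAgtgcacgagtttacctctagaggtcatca
Hoxa13, chr6:52260831-52261130 on the minus strand: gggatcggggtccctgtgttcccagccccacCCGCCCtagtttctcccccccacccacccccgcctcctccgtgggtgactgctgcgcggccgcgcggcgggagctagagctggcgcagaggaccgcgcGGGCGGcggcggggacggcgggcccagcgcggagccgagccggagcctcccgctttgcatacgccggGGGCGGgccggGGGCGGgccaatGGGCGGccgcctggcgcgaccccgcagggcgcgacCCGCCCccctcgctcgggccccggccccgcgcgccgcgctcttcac
Hoxd13, chr2:74667975-74668274 on the plus strand: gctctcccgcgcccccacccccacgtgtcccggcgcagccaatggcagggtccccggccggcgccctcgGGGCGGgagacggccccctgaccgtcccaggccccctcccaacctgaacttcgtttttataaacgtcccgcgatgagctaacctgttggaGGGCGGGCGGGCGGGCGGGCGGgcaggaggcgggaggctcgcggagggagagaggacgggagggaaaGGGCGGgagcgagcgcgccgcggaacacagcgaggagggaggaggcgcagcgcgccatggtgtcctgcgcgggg
The Hoxa5 region held 4 matches to TAAT and none to GGGCGG. The Hoxa13 region held no TAAT and 6 matches to GGGCGG, and the Hoxd13 region held no TAAT and 7, overlapping matches included. Of the 32850 start regions in the table, 58.03% held TAAT and 35.66% held GGGCGG. The table held 24 start regions for 22 of the Hox genes, and 19 of these held TAAT and 10 GGGCGG. CpG dinucleotides numbered 29 in the Hoxa5 region, 45 in that of Hoxa13 and 37 in that of Hoxd13, with a median of 14.5 over the 24 Hox regions and of 7 over the whole table. These letter matches describe the sequences and say nothing of which factors bound them.

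The libraries had estimated depths of 19200000 to 19900000 fragments, so that 1 FPKM (fragments mapped to each kilobase of a transcript, divided by the library's mapped fragments) on a 2 kb transcript stood for about 34.6 to 35.8 fragments. Differences between libraries are on the log2(FPKM + 1) scale, which understates the change of low genes, and the rule for calling a gene higher or lower was a difference of 1 or more either way. With 1 library per genotype, no difference below has a replicate check, an error or a test. The Gadd45a transcript went against the labels, at 22.9 FPKM in wild type and 33.9 in the library labelled Gadd45-/-, and at 31.4 in G3 Terc-/- and 45.1 in the library labelled dKO, so genotypes are given as labelled. The Terc value was 0.53 FPKM in wild type and 0.26 in the library labelled Gadd45-/-, and both G3 libraries were at 0. All of these lie under 1 FPKM and rest on few fragments, so they are a weak check of the Terc labels. The library labelled Gadd45-/- differed from the others in sex-linked transcripts: Xist stood at 0.15 FPKM in it and at 24.0 to 34.1 in the others, and the Y-linked Ddx3y at 16.4 FPKM in it and at 0.011 to 0.023 in the others. Sex and that label therefore cannot be told apart in any comparison that uses this library. All 9 fibroblast markers reached 1 FPKM in every library, with summed levels of 7042 to 12355 FPKM, lowest in G3 Terc-/-. None of the 6 endothelial and 5 muscle markers did in any library. Between 1 and 2 of 8 blood markers, 2 and 3 of 7 epithelial, 1 and 3 of 7 neural and 1 and 4 of 5 liver markers reached 1 FPKM, the most liver markers being in wild type. Their summed levels ran from 2.75 to 5.69 FPKM for blood, 9.04 to 21.2 for epithelium, 31.4 to 78.2 for the neural list and 1.92 to 12.2 for liver. The part of these other cells in the Hox values was not tested, and in bulk RNA fewer cells of a kind cannot be told apart from less RNA per cell.

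Most Hox genes were measurable. A level of 1 FPKM was reached by 32 genes in wild type, 30 in the library labelled Gadd45-/-, 34 in G3 Terc-/- and 33 in the library labelled dKO, and 34 of the 39 had a mean of 1 FPKM or more. Only Hoxb1, which patterns the hindbrain, was listed at 0 in every library. The median Hox gene had 3.43, 3.05, 5.0 and 5.28 FPKM in these libraries. Hoxb9, a posterior HoxB gene, was the highest in wild type at 32.9 FPKM, in the library labelled Gadd45-/- at 26.7 and in the library labelled dKO at 31.9. In G3 Terc-/- Hoxc6, a thoracic gene of HoxC, led at 22.2 FPKM, and Hoxb9 stood at 16.5. All 4 libraries thus held transcripts of anterior, central and posterior Hox genes, as the plot of levels by cluster shows.

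**Figure D1:**
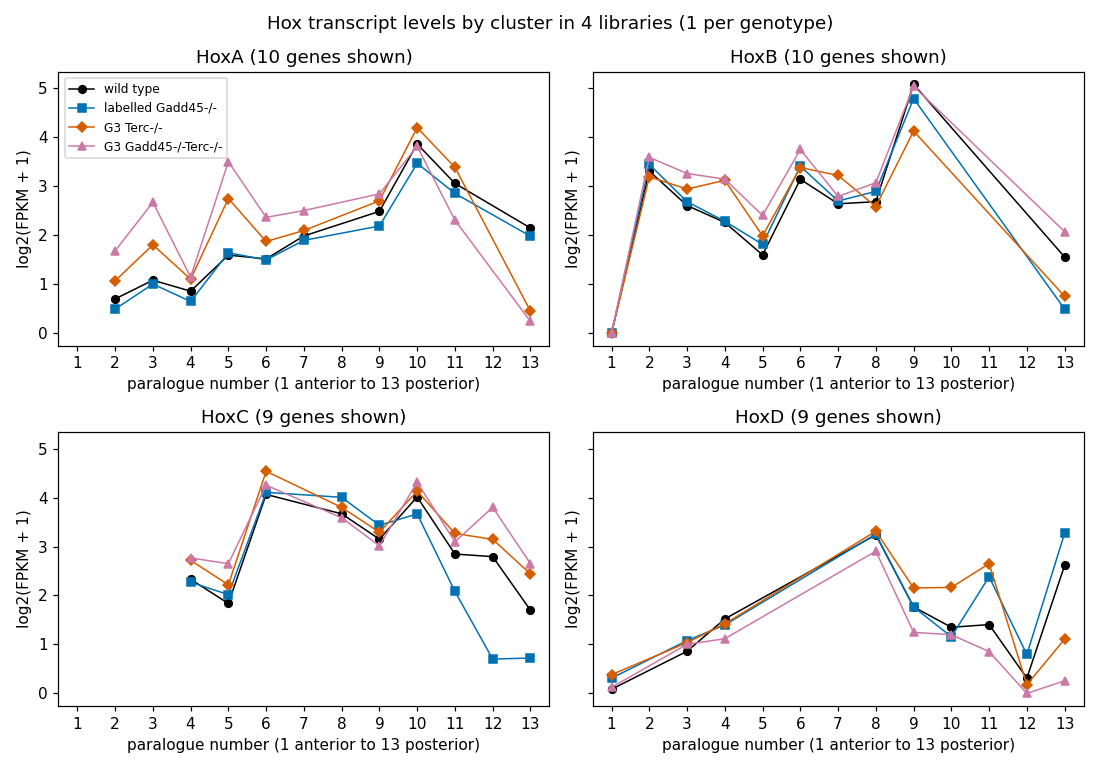
Level of each Hox gene, as log2(FPKM + 1), against paralogue number in the 4 clusters, with 1 line per library and no error because each genotype had 1 library. A gene of HoxA is not shown. The lines lie close together over the central genes and part at Hoxa13, Hoxb13, Hoxc12, Hoxc13, Hoxd11 and Hoxd13, and at Hoxa3 and Hoxa5.

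In HoxA, anterior and central genes stood highest in the library labelled dKO and the most posterior gene stood lowest there. Hoxa3, which patterns neck structures, stood at 1.12 FPKM in wild type and 1.01 in the library labelled Gadd45-/-, and at 2.49 in G3 Terc-/- and 5.38 in the library labelled dKO. Hoxa5, which acts in the cervical and upper thoracic region and the lung, stood at 2.02 FPKM in wild type and 2.12 in the library labelled Gadd45-/-, and at 5.73 in G3 Terc-/- and 10.3 in the library labelled dKO. Both were close in wild type and the library labelled Gadd45-/-, and higher in both G3 libraries.
Hoxa2, which patterns the hindbrain and the second branchial arch, stood at 0.62 FPKM in wild type and 0.41 in the library labelled Gadd45-/-, and at 1.10 in G3 Terc-/- and 2.21 in the library labelled dKO. Hoxa4, Hoxa6, Hoxa7 and Hoxa9 were also higher in both G3 libraries than in either library with Terc, at smaller differences. Their levels ran from 0.57 FPKM for Hoxa4 in the library labelled Gadd45-/- to 6.18 for Hoxa9 in the library labelled dKO.
Hoxa10, a posterior gene of the lumbar region and the reproductive tract, was the highest of the cluster in every library, at 13.6 FPKM in wild type and 10.1 in the library labelled Gadd45-/-, and at 17.3 in G3 Terc-/- and 13.1 in the library labelled dKO. Hoxa11, which patterns the forearm and the uterus, stood at 7.33 FPKM in wild type and 6.23 in the library labelled Gadd45-/-, and at 9.47 in G3 Terc-/- and 3.95 in the library labelled dKO. Hoxa13, which patterns the hand and foot and the genital region, stood at 3.43 FPKM in wild type and 2.95 in the library labelled Gadd45-/-, and at 0.37 in G3 Terc-/- and 0.18 in the library labelled dKO. The Hoxa13 values rest on about 145, 129, 16 and 8 estimated fragments, and both libraries with Terc lay above both G3 libraries. The deposited values were 9.35-fold lower in G3 Terc-/- than in wild type and 16.2-fold lower in the library labelled dKO than in that labelled Gadd45-/-.

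In HoxB only Hoxb13 reached a difference of 1 in any comparison. Hoxb2 to Hoxb8 lay between 2.03 and 12.5 FPKM over all libraries, and the largest difference among these 7 genes was 0.88 for Hoxb4. Hoxb9 came close, at -0.95 in G3 Terc-/- against wild type and 0.91 in the library labelled dKO against G3 Terc-/-. Hoxb4, a central gene also known in blood stem cells, stood at 3.79 FPKM in wild type and 3.88 in the library labelled Gadd45-/-, and at 7.70 in G3 Terc-/- and 7.85 in the library labelled dKO, and the 2 G3 libraries lay above the other two. Of the 9 HoxB genes above 0, 7 were highest in the library labelled dKO, beside 15.5% of genes with a mean of 1 FPKM or more.
Hoxb13, the last gene of the cluster, known in the tail bud and the prostate, stood at 1.94 FPKM in wild type and 0.41 in the library labelled Gadd45-/-, and at 0.69 in G3 Terc-/- and 3.21 in the library labelled dKO. These are about 75, 16, 27 and 126 estimated fragments. The gene was thus low where 1 of the 2 labelled losses was present, and higher with neither or both.

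In HoxC the posterior end of the cluster set the library labelled Gadd45-/- apart. Hoxc12, of the far posterior end, stood at 5.93 FPKM in wild type and 0.63 in the library labelled Gadd45-/-, and at 7.85 in G3 Terc-/- and 12.9 in the library labelled dKO. Hoxc13, which acts in hair and nail as well as at the tail end, stood at 2.25 FPKM in wild type and 0.65 in the library labelled Gadd45-/-, and at 4.43 in G3 Terc-/- and 5.28 in the library labelled dKO. Hoxc11, which acts in the hindlimb and sacral region, stood at 6.19 FPKM in wild type and 3.24 in the library labelled Gadd45-/-, and at 8.62 in G3 Terc-/- and 7.54 in the library labelled dKO. For all 3 of these neighbours the library labelled Gadd45-/- was the lowest of the 4, and the estimated fragments there were 10 for Hoxc12, 29 for Hoxc13 and 117 for Hoxc11.
The thoracic and lumbar members differed little. Hoxc6 stood at 15.7 FPKM in wild type and 16.2 in the library labelled Gadd45-/-, and at 22.2 in G3 Terc-/- and 18.1 in the library labelled dKO. Hoxc8, a thoracic gene, stood at 11.7 FPKM in wild type and 15.0 in the library labelled Gadd45-/-, and at 12.9 in G3 Terc-/- and 11.0 in the library labelled dKO. Hoxc10, a lumbar gene, was at 15.1 FPKM in wild type and 11.7 in the library labelled Gadd45-/-, and at 16.5 in G3 Terc-/- and 18.9 in the library labelled dKO. Hoxc4, Hoxc5 and Hoxc9 ran from 2.57 FPKM for Hoxc5 to 9.81 for Hoxc9, and Hoxc8 and Hoxc9 were highest in the library labelled Gadd45-/-, unlike the 3 genes at the end of the cluster.

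In HoxD the library labelled dKO was the lowest for 6 of 9 genes and the highest for none. Of all genes with a mean of 1 FPKM or more, 21.0% were lowest and 15.5% highest in that library. Hoxd13, which shapes digits and genitalia, stood at 5.13 FPKM in wild type and 8.66 in the library labelled Gadd45-/-, and at 1.16 in G3 Terc-/- and 0.20 in the library labelled dKO. The estimated fragments were 225, 393, 51 and 9. As for Hoxa13, its paralogue, both G3 libraries lay below both libraries with Terc, and the level was 4.43-fold lower in G3 Terc-/- than in wild type and 43.7-fold lower in the library labelled dKO than in that labelled Gadd45-/-.
Hoxd11, which patterns the forearm, stood at 1.65 FPKM in wild type and 4.22 in the library labelled Gadd45-/-, and at 5.28 in G3 Terc-/- and 0.81 in the library labelled dKO. Its order was unlike that of Hoxd13, with G3 Terc-/- at the top and the library labelled dKO at the bottom. Hoxd10, a neighbour active in the limb and spinal cord, stood at 1.55 FPKM in wild type and 1.23 in the library labelled Gadd45-/-, and at 3.49 in G3 Terc-/- and 1.30 in the library labelled dKO. Hoxd9, its other neighbour, was at 2.40 FPKM in wild type and 2.40 in the library labelled Gadd45-/-, and at 3.45 in G3 Terc-/- and 1.37 in the library labelled dKO. Both also peaked in G3 Terc-/-. Hoxd12 was low throughout, at 0.24 FPKM in wild type, 0.13 in G3 Terc-/- and 0.74 in the library labelled Gadd45-/-, and was listed at 0 in the library labelled dKO.
Hoxd8, the highest HoxD gene in wild type, stood at 8.44 FPKM in wild type and 8.53 in the library labelled Gadd45-/-, and at 8.93 in G3 Terc-/- and 6.49 in the library labelled dKO. Hoxd1 stayed at or under 0.31 FPKM, Hoxd3 lay between 0.82 and 1.11, and Hoxd4 between 1.17 and 1.87. The anterior and central genes of HoxD therefore held none of the larger differences.

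**Figure D2:**
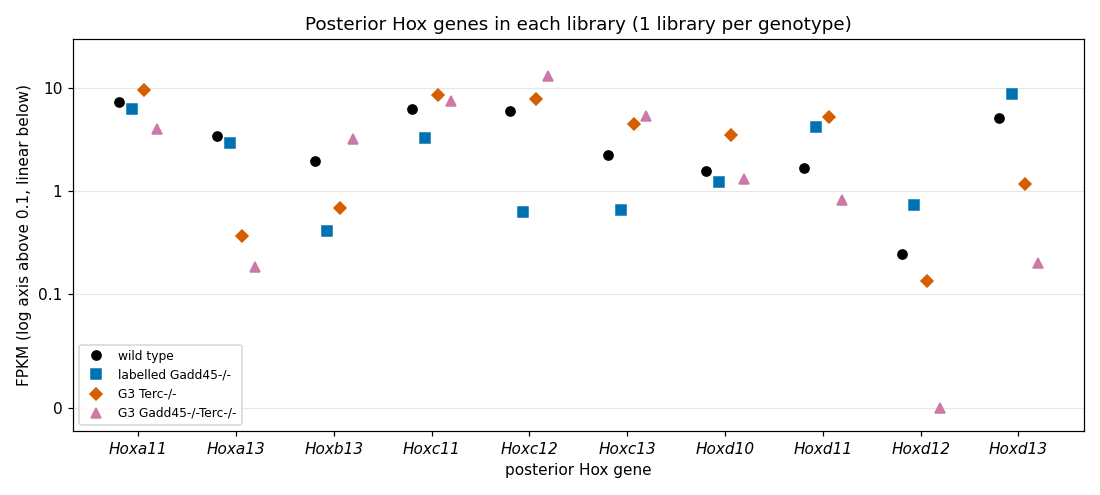
FPKM of 10 posterior Hox genes in each library, on an axis that is logarithmic above 0.1 FPKM and linear below, with 1 point per library. Hoxa13 and Hoxd13 are lowest in both G3 libraries, Hoxc12 and Hoxc13 in the library labelled Gadd45-/-, and Hoxd12 is listed at 0 in the library labelled dKO.

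The 5 comparisons of libraries share libraries, so their counts are not independent of each other. Throughout the text, counts of members that stood above, below, highest or lowest include members with a mean under 1 FPKM. The shares of genes set beside those counts leave out such genes. In the library labelled Gadd45-/- against wild type, no Hox gene was higher by this rule, and 2 of 39 were lower, Hoxc12 with a difference of -2.09 and Hoxb13 with -1.06. Of all 22498 symbols compared, 0.187% were higher and 0.138% lower, and of the 11589 with a mean of 1 FPKM or more, to which all Hox genes named by the rule here and below belong, 0.337% and 0.198%. Hoxc13 at -0.98 lay just outside the rule, as did Hoxd11 on the other side at 0.98. When the libraries were rescaled by the median ratio over genes, Hoxd11 passed it and the split became 1 higher and 2 lower. Of the 11 HoxA genes, 10 stood below wild type, with differences down to -0.40 for Hoxa10, beside 57.5% of all genes with a mean of 1 FPKM or more. The median over all 39 was -0.00092, beside -0.027 for those genes. These differences move with the sex-linked transcripts of the library labelled Gadd45-/-, whose part in them was not tested.

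In G3 Terc-/- against wild type 2 Hox genes were higher, Hoxa5 by 1.15 and Hoxd11 by 1.24, a share of 5.13% beside 5.7% of all symbols and 9.93% of those with a mean of 1 FPKM or more. Another 2 were lower, Hoxa13 with -1.70 and Hoxd13 with -1.51, beside 3.32% and 6.24%. The numbers of Hox genes past the rule were thus near or below the background of this comparison. After rescaling of the libraries the split was 2 higher and 3 lower, the added gene being Hoxb9 with median ratios and Hoxb13 with quantiles. Both higher genes have annotated spans that overlap a neighbouring Hox gene, so their fragments may be shared. Above wild type stood all 9 HoxC genes, 10 of 11 HoxA genes, 6 of 9 HoxD genes and 5 of 10 HoxB genes, beside 50.4% of all genes with a mean of 1 FPKM or more. The HoxC differences ran from 0.12 for Hoxc10 to 0.74 for Hoxc13. The median over the 39 genes was 0.33, beside 0.01 for the same background, and 0.16 with quantile normalization, under which the HoxD median went from 0.18 to -0.01.

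In the library labelled dKO against G3 Terc-/-, 1 Hox gene was higher, Hoxb13 by 1.32, beside 0.853% of all symbols and 1.52% of those with a mean of 1 FPKM or more. Hoxd11 with -1.80 and Hoxa11 with -1.08 were lower, 5.13% of the members beside 2.79% and 4.78%. With quantile normalization the split turned to 2 higher and 1 lower, as Hoxa3 came to 1.03 and Hoxa11 to -0.99. All 9 HoxD genes stood lower in the library labelled dKO, beside 53.8% of genes with a mean of 1 FPKM or more, and their median was -0.41. The medians of HoxA, HoxB and HoxC were 0.14, 0.38 and 0.05, so HoxD was the 1 cluster with a median below 0 here.

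The library labelled dKO against that labelled Gadd45-/- gave the most Hox differences. There were 7 higher genes, 17.9% of the members, beside 1.33% of all symbols and 2.49% of those with a mean of 1 FPKM or more. From HoxA these were Hoxa5 by 1.86, Hoxa3 by 1.67 and Hoxa2 by 1.19, and from HoxB Hoxb13 by 1.58. From HoxC they were Hoxc12 by 3.10, Hoxc13 by 1.93 and Hoxc11 by 1.01, the genes that had stood low in the library labelled Gadd45-/-. Hoxc11 lay at the rule's edge and came to 0.98 under quantile normalization. Lower were Hoxd13 with -3.01, Hoxa13 with -1.74 and Hoxd11 with -1.53, 7.69% beside 1.29% and 2.35%. Posterior Hox genes thus passed the rule in both directions, Hoxb13, Hoxc11, Hoxc12 and Hoxc13 being higher and Hoxa13, Hoxd11 and Hoxd13 lower.

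In the library labelled dKO against wild type, Hoxa5 with 1.91, Hoxa3 with 1.59 and Hoxc12 with 1.01 were higher, 7.69% of the members beside 2.03% of all symbols and 3.81% of those with a mean of 1 FPKM or more. Hoxd13 with -2.35 and Hoxa13 with -1.91 were lower, 5.13% beside 1.56% and 2.85%. Hoxa3 and Hoxa5 have overlapping annotated spans, so of the 3 higher genes only Hoxc12 has a span free of other Hox genes. Hoxa13 and Hoxd13 were lower by the rule in each of the 3 comparisons made between a G3 library and a library with Terc.

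**Figure D3:**
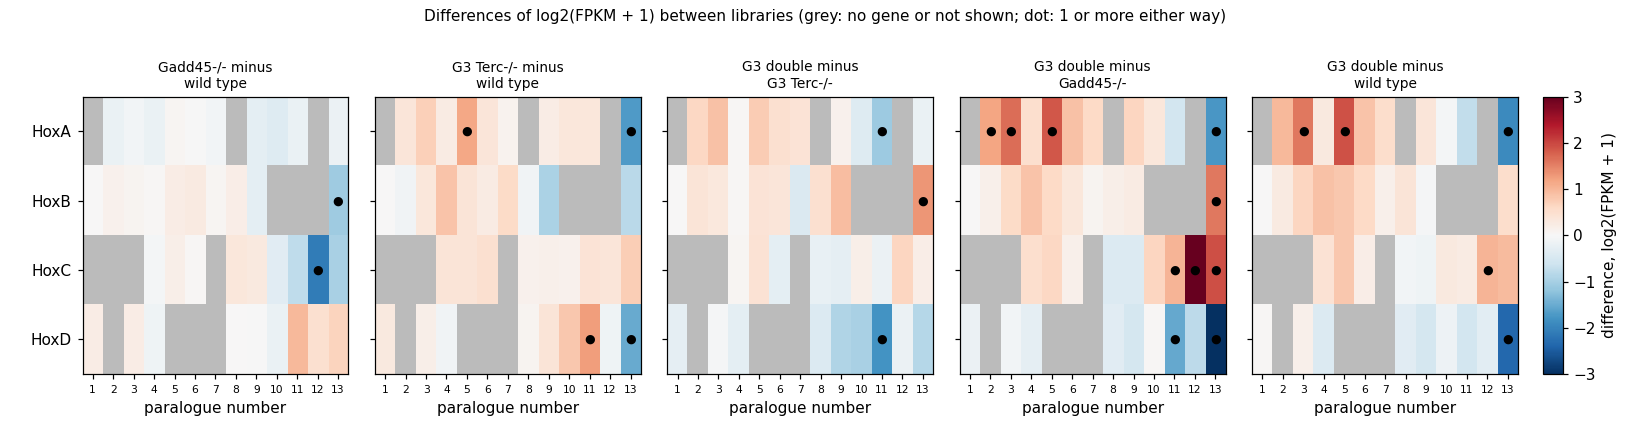
Differences of log2(FPKM + 1) between pairs of libraries for every Hox gene, with clusters in rows and paralogue numbers in columns, red for higher and blue for lower in the first-named library, grey where the cluster has no such gene or it is not shown, and a dot at 1 or more either way. The colour scale ends at 3, which Hoxc12 and Hoxd13 pass slightly in the fourth panel. The dots gather at the posterior end and at Hoxa2, Hoxa3 and Hoxa5.

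The double difference is the difference of the library labelled dKO from G3 Terc-/- minus that of the library labelled Gadd45-/- from wild type. It was 1 or more for 4 Hox genes, Hoxc12 with 2.75, Hoxb13 with 2.38, Hoxb9 with 1.20 and Hoxc13 with 1.19, beside 1.13% of all symbols and 1.92% of those with a mean of 1 FPKM or more. It was -1 or less for Hoxd11 with -2.77 and Hoxd13 with -1.505, beside 3.43% and 5.9%. All 9 HoxD genes had a double difference below 0, beside 50.3% of genes with a mean of 1 FPKM or more, and the HoxD median was -0.66 beside 0.44 in HoxA. Without replicates the double difference was not tested.

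Summed FPKM values give the spread of each cluster's transcripts over anterior, central and posterior paralogue groups. In HoxA the sum was 39.2 FPKM in wild type and 32.2 in the library labelled Gadd45-/-, and 50.8 in G3 Terc-/- and 53.1 in the library labelled dKO. Hoxa9 to Hoxa13 made up 73.8% of the sum in wild type, 70.8% in the library labelled Gadd45-/-, 64.3% in G3 Terc-/- and 44.1% in the library labelled dKO. HoxA transcripts were thus weighted more toward anterior and central genes in the library labelled dKO than in the other 3.
HoxD summed to 22.2, 28.8, 25.5 and 12.4 FPKM in the same order, and its posterior share was 49.5%, 59.9%, 53.0% and 29.6%. Its share of all Hox FPKM was smallest in the library labelled dKO, at 4.97% against 10.8% in wild type, 14.7% in the library labelled Gadd45-/- and 11.0% in G3 Terc-/-.
HoxC summed to 71.4, 64.2, 90.6 and 91.9 FPKM with a posterior share of 52.3%, 40.5%, 51.0% and 56.3%. HoxB summed to 73.1, 70.4, 65.4 and 92.7 FPKM with a posterior share of 47.6%, 38.5%, 26.2% and 37.9%, most of it Hoxb9. The clusters therefore did not move together: the library with the smallest posterior share was dKO for HoxA and HoxD, Gadd45-/- for HoxC and G3 Terc-/- for HoxB, each as labelled.
Weighting each paralogue number by FPKM over all 39 genes gave 8.11 in wild type, 7.82 in the library labelled Gadd45-/-, 7.75 in G3 Terc-/- and 7.50 in the library labelled dKO. In HoxA alone it went from 9.01 in wild type to 6.94 in the library labelled dKO, and in HoxC from 8.51 to 8.77. By region, the median difference of the library labelled dKO from wild type was 0.43 over the 8 genes of groups 1 to 3, 0.44 over the 15 of groups 4 to 8 and -0.09 over the 16 of groups 9 to 13.

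**Figure D4:**
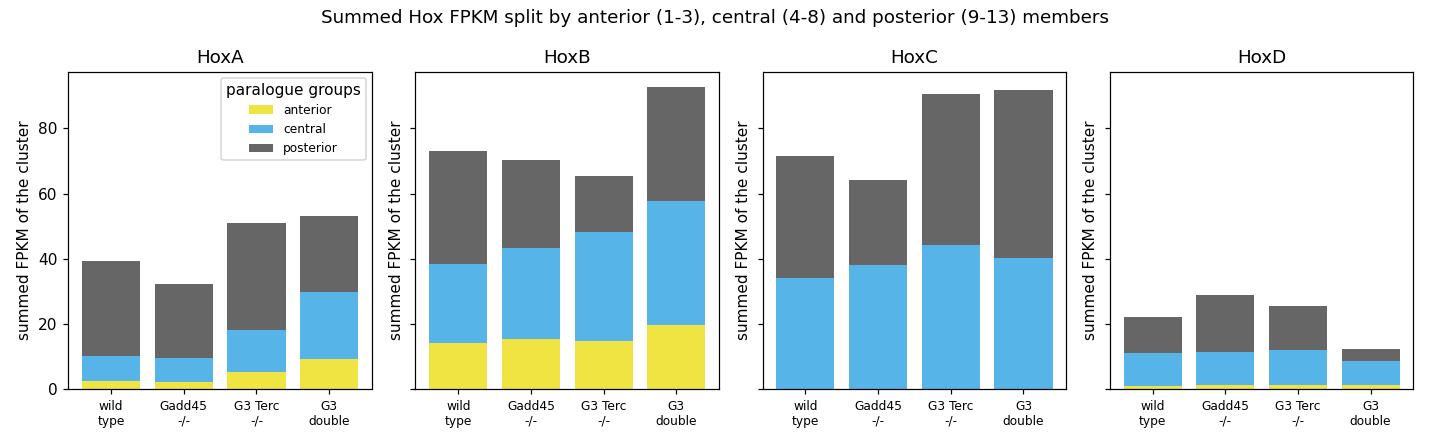
Summed FPKM of each cluster in each library, split into anterior (paralogue groups 1 to 3), central (4 to 8) and posterior (9 to 13) members, from single libraries. The posterior share of HoxA and HoxD is smallest in the library labelled dKO, and HoxD is the smallest cluster throughout.

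Each library was also the highest or the lowest for a different number of Hox genes. Of the 38 genes above 0, 20 were highest in the library labelled dKO, where 15.5% of genes with a mean of 1 FPKM or more were highest. Another 10 were highest in G3 Terc-/-, beside 39.0%. The lowest value lay in the library labelled Gadd45-/- for 15 of the 38, beside 21.6%, and in G3 Terc-/- for 3, beside 34.2%. It lay in wild type for 10, beside 23.3%, and in the library labelled dKO for 10, beside 21.0%. In HoxA 8 of 11 genes were highest in the library labelled dKO and 8 lowest in that labelled Gadd45-/-, which differs from HoxD, where the library labelled dKO was the lowest for most.

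Genes next to the clusters were looked at in the same way. Of the 3 protein-coding neighbours on each side of each cluster, 24 in all, 18 had a mean of 1 FPKM or more. Only Cbx5, which encodes a heterochromatin protein, and Hnrnpa1, which encodes an RNA-binding protein, both beside HoxC, passed the rule. In G3 Terc-/- against wild type they stood at -1.39 and -1.93, 2 of 18 lower beside 6.24% of all genes with such a mean, and Hnrnpa1 was lower by the rule also in the library labelled dKO against wild type, at -1.20. The 9 HoxC genes stood above wild type in G3 Terc-/-. Evx2, which lies beside Hoxd13 and is known to share its limb control region, was listed at 0.33 FPKM in wild type and 0.53 in the library labelled Gadd45-/-, and at 0.083 in G3 Terc-/- and 0 in the library labelled dKO. Its order across the libraries was that of Hoxd13, at levels under 1 FPKM.
Of the non-coding transcripts of the clusters, 3 had a mean of 1 FPKM or more, and none of them passed the rule in any comparison. Hoxa11as, the antisense partner of Hoxa11, stood at 8.24 FPKM in wild type and 6.92 in the library labelled Gadd45-/-, and at 9.08 in G3 Terc-/- and 4.51 in the library labelled dKO. Like Hoxa11 it was lowest in the library labelled dKO, and the pair cannot be told apart if the counting did not use strand. Mira, a transcript of the HoxA cluster, stood at 5.0 FPKM in wild type and 4.97 in the library labelled Gadd45-/-, and at 6.91 in G3 Terc-/- and 7.68 in the library labelled dKO, lower in both libraries with Terc, as were Hoxa2 to Hoxa9.

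Of 8 measured Pbx, Meis and Pknox genes, whose products bind DNA together with Hox proteins, only Pknox2 passed the rule, with a difference of 1.12 between the library labelled dKO and G3 Terc-/-, where 1.52% of genes with such a mean were higher. It stood at 2.74, 2.26, 1.46 and 4.37 FPKM in the order wild type, Gadd45-/-, G3 Terc-/- and dKO, which is kept for the genes below. Of 27 measured Polycomb genes 2 passed it, both lower in G3 Terc-/- than in wild type. That share was near the 6.24% of all genes with a mean of 1 FPKM or more. Ezh2, the histone methyltransferase of Polycomb complex PRC2, stood at 12.0, 11.0, 4.64 and 5.91 FPKM, a difference of -1.21. Phf19, an accessory subunit of PRC2, stood at 2.59, 2.62, 0.67 and 1.18 FPKM, a difference of -1.10. None of 12 measured Trithorax genes passed the rule in any comparison. Ezh2 and Phf19 were lower in both G3 libraries than in the others, as were Hoxa13 and Hoxd13. The part of Ezh2 and Phf19 in the Hox differences was not tested.
Of 14 measured retinoic acid genes, 4 were higher and 3 lower in G3 Terc-/- than in wild type, beside 9.93% and 6.24% of genes with a mean of 1 FPKM or more. In the library labelled dKO against that labelled Gadd45-/- 4 were higher and 3 lower, beside 2.49% and 2.35%, and none passed the rule in the library labelled Gadd45-/- against wild type. Crabp1, a cellular retinoic acid binding protein, stood at 1355, 728, 621 and 181 FPKM. Cyp26b1, an enzyme that degrades retinoic acid in the distal limb, stood at 11.3, 5.92, 3.39 and 1.21 FPKM. Both were lowest in the library labelled dKO, where Hoxa13 and Hoxd13 were lowest too.
Dhrs3, a retinaldehyde reductase, stood at 2.43, 4.95, 21.9 and 24.4 FPKM. Aldh1a3, which makes retinoic acid, stood at 2.87, 2.97, 0.11 and 0.13 FPKM. The other listed Aldh1a genes went the opposite way, higher in both G3 libraries than in both others. Aldh1a1 stood at 1.09, 0.33, 16.5 and 2.08 FPKM and Aldh1a2 at 2.29, 1.09, 4.18 and 4.45 FPKM. Dhrs3 was higher and Aldh1a3 lower in both G3 libraries than in both others, the same split of libraries as for Hoxa5 and, in the opposite sense, Hoxa13. Their part in the Hox differences was not tested.
The caudal factors Cdx1, Cdx2 and Cdx4 and the early mesoderm factor T were listed at 0 in every library. Gdf11, a secreted factor that sets the trunk-to-tail boundary, stood at 9.59, 10.5, 21.8 and 16.2 FPKM and was higher by 1.11 in G3 Terc-/- than in wild type.

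Other position-marking factors were set beside the Hox genes, since a culture's Hox code depends on the tissue it came from. Tbx5, the forelimb factor, stood at 1.48, 1.53, 2.06 and 2.01 FPKM. Of the hindlimb factors, Tbx4 stood at 3.62, 5.77, 3.57 and 2.48 FPKM and Pitx1 at 5.09, 9.54, 7.77 and 12.8 FPKM. Isl1, also listed for the hindlimb, stood under 1 FPKM throughout, at 0.64, 0.32, 0.46 and 0.13 FPKM. All 4 libraries carried Tbx5, Tbx4 and Pitx1 at 1 FPKM or more. Only Pitx1 passed the rule, with 1.18 in the library labelled dKO against wild type. In that comparison 3.81% of genes with a mean of 1 FPKM or more were higher.
Prrx1, a general marker of limb mesenchyme, stood at 91.1, 104, 113 and 86.3 FPKM. Msx1, a factor of the distal limb and face, stood at 1.51, 4.93, 0.21 and 0.41 FPKM, and Lhx2, of the distal limb bud, at 0.79, 1.47, 0.12 and 0 FPKM. Both were lower in the G3 libraries than in the others, as were Hoxa13 and Hoxd13. Some other limb factors did not share this split: Msx2, a paralogue of Msx1, stood at 2.59, 3.91, 7.51 and 4.07 FPKM, Hand2, of the posterior limb bud, at 3.63, 2.41, 8.63 and 2.99 FPKM and Lhx9, a paralogue of Lhx2, at 3.21, 6.0, 4.09 and 2.77 FPKM. Msx2 and Hand2 were higher by the rule in G3 Terc-/- than in wild type, by 1.24 and 1.06.
Shox2, a factor of the proximal limb, stood at 17.5, 13.8, 49.0 and 37.7 FPKM. Foxf1a and Foxf2, which mark visceral mesoderm, stood at 3.52, 6.42, 16.0 and 11.9 FPKM and at 3.03, 1.76, 11.3 and 4.61 FPKM, and Meox2, a somite factor, at 0.48, 0.63, 3.92 and 3.67 FPKM. These 4 stood higher in both G3 libraries than in both others. Of 8 listed somite and sclerotome factors, only Meox2 (1 gene) had a mean of 1 FPKM or more. The others, all low, went both ways: in G3 Terc-/- against wild type Pax1 differed by -0.73 and Tbx6 by 0.29. The head factors Otx2 and Pax7 were listed at 0 throughout. Of the 15 measured limb and body wall factors, 3 were higher and 1 lower in G3 Terc-/- than in wild type, and all 3 measured visceral factors were higher, beside 9.93% and 6.24% of genes with a mean of 1 FPKM or more. The other visceral and cardiac factors found had means under 1 FPKM, and only Tbx20 among them stood above wild type there, by 0.55. Wt1 differed by -0.67 and Gata4 by -0.42. Whether the cultures held different body regions, and the part of that in the Hox differences, was not tested.

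**Figure D5:**
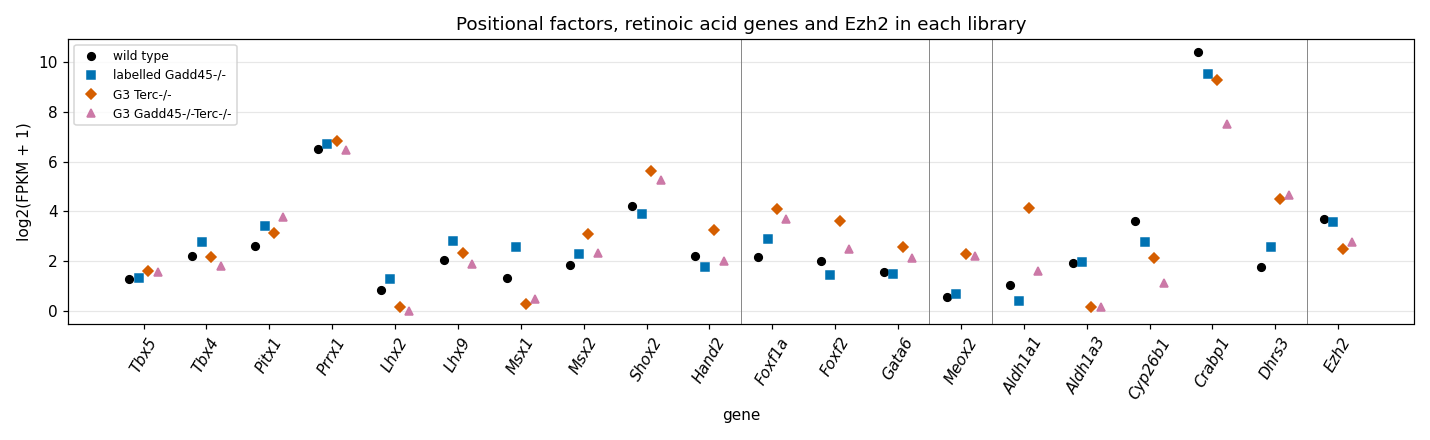
Levels, as log2(FPKM + 1), of position-marking factors, retinoic acid genes and Ezh2 in each library, with 1 point per library and vertical lines between limb, visceral, somite, retinoic acid and Polycomb genes. Msx1, Lhx2, Cyp26b1, Crabp1 and Aldh1a3 are lower in both G3 libraries than in the other 2. Shox2, Foxf2, Meox2, Aldh1a1 and Dhrs3 are higher there, while Tbx4, Lhx9, Hand2 and others do not share this split.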

How the data were processed

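Poly(A)-selected RNA of 4 fibroblast cultures was sequenced, and the authors deposited FPKM values, 1 per gene symbol and library. TopHat2 2.1.1, Cufflinks 2.2.1 and build mm9 are named per the submitters' processing notes, their roles not given in the sources used here, like the annotation and strand setting. FPKM gives 1 value per gene and cannot separate isoforms, and fragments of overlapping genes may be shared. The members and lists were chosen with earlier results of these data known.

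Differences of log2(FPKM + 1) were taken, with a rule of 1 either way, over 22498 symbols after 737 short non-coding ones were left out. All Hox genes could be named, and from each other list up to 6 genes with a mean of 1 FPKM or more and a difference past the rule, with region-defining factors named at any level. Some results that the rule selects are not reported here. Mll2 was left out because its symbol was used for more than 1 gene. Hoxa11as, Mira, Evx2, Cbx5 and Hnrnpa1 were named after their values were seen. The authors' read totals are not in the FPKM values, so depth was estimated from low values of transcripts of 1500 to 8000 nt with an assumed fragment length of 200 nt. Of these, 78.5% to 81.2% lay within 0.1 of a whole fragment, and the estimated fragments per gene carry no error. Other scalings, pseudocounts, filters and rules were also run. The steps were tested on simulated data. Python 3.11.15, numpy 2.4.6, pandas 2.3.3 and matplotlib 3.10.9 were used.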

Additional observations from a re-analysis of the deposited data

Results flagged for a closer look

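Hoxb13 differed in opposite directions under the Gadd45 label. It was lower by -1.06 on the log2(FPKM + 1) scale in the library labelled Gadd45-/- than in wild type, and higher by 1.32 in the library labelled dKO than in G3 Terc-/-, so that the difference between these differences was 2.38. Hoxd11 differed in opposite directions with G3 Terc loss. It was higher by 1.24 in G3 Terc-/- than in wild type and lower, at -1.53, in the library labelled dKO than in that labelled Gadd45-/-, and the difference between these differences was -2.77. With 1 library per genotype neither was tested, and the annotated span of Hoxd11 overlaps that of Hoxd10.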

How the results depend on the processing

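No paired analysis was possible because each genotype had 1 library, and leaving a library out would remove its genotype. The anterior median of the library labelled Gadd45-/- against wild type went from 0.04 to -0.07 over genes with a mean of 1 FPKM or more and to -0.03 with group 4 counted as anterior. In G3 Terc-/- against wild type quantile normalization lowered the Hox median from 0.33 to 0.16 and turned that of HoxD from 0.18 to -0.01. No gene past the rule changed sign under either rescaling, and with a smaller pseudocount none could. With a pseudocount of 0.1 FPKM, higher Hox genes numbered 3 in the library labelled Gadd45-/- and 6 in G3 Terc-/- against wild type, 2 in the library labelled dKO against G3 Terc-/- and 9 against wild type, lower ones 7 in the library labelled dKO against G3 Terc-/-, and the HoxD median there was -1.21. With median-of-ratios scaling 1 gene was higher in the library labelled Gadd45-/- than in wild type. With quantile normalization 2 were higher and 1 lower in the library labelled dKO than in G3 Terc-/-. With a rule of a 1.5-fold difference of FPKM + 1, higher and lower genes numbered 2 and 4 in the library labelled Gadd45-/- and 6 and 4 in G3 Terc-/- against wild type, and 6 and 5 in the library labelled dKO against G3 Terc-/-, and 15 and 11 were higher in the library labelled dKO than in the library labelled Gadd45-/- and in wild type. Without genes in overlapping spans, chosen after seeing the data, 0 were higher in G3 Terc-/- and 1 in the library labelled dKO than in wild type, and 1 was lower in the library labelled dKO than in G3 Terc-/-. A smaller pseudocount can only widen a difference, so the 24 single-gene calls had to hold at 0.1 FPKM, where 25 calls were added. Of the 24 calls, 24 held with median-of-ratios scaling and 22 with quantile normalization, and each of these settings added 2. Shares of all genes were computed only at the main scaling, pseudocount and rule. The Hox counts under other scalings, pseudocounts and rules therefore have no background beside them. Genes under 1 FPKM rest on few fragments, so their ratios are imprecise.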
